A study of Mus musculus with 16 samples.

Results

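The genes of leukotriene synthesis were followed across all 8 conditions of an RNA sequencing study of mouse mast cells. The set held 8 genes, chosen by symbol: Alox5, Alox5ap, Ltc4s, Lta4h, Alox15, Mgst2, Ggt5 and Cysltr1. Each was found by its Ensembl identifier among the 39179 genes counted in every sample. The cells were bone marrow derived mast cells (BMMCs) from male C57BL/6 mice, grown for 4 weeks with stem cell factor and IL3. The 2 genotypes were PEP+/+ (wild type) and PEP-/- (null for PEP, the tyrosine phosphatase encoded by Ptpn22). In all 16 samples the cells had been sensitised with IgE (0.05 µg/ml in the sample labels, 3 h; the study's methods give a higher dose), so no untreated cells were measured. Within each genotype the cells received IgE alone, IgE and DNP (dinitrophenol antigen, 200 ng/ml, 1 h), IgE and DEX (dexamethasone, a glucocorticoid, 100 nM, 8 h) or IgE, DNP and DEX together. Every condition had 2 samples, one from a numbered set and one from a lettered set. The study calls them biological replicates. How many mice or cultures stood behind them is not given in the sources used here, so the p-values measure the spread between these samples alone.

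Leukotrienes are lipid mediators made from arachidonic acid, and mast cells are known for releasing leukotriene C4 when IgE on their surface is crosslinked by antigen. Alox5 (5-lipoxygenase) oxidises arachidonic acid that Alox5ap (FLAP) presents to it. Lta4h hydrolyses the product to leukotriene B4, whereas Ltc4s conjugates it with glutathione to give leukotriene C4, and Mgst2 is a related microsomal glutathione transferase with the same activity. Ggt5 trims leukotriene C4 outside the cell, Cysltr1 is a receptor for the cysteinyl products, and Alox15 is a lipoxygenase of a separate branch.

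Counts assigned to genes ranged from 8612531 to 22143526 per sample. Reads outside genes made up 4.69% to 7.18% of reads in the numbered set and 8.35% to 10.98% in the lettered set, and the sets did not overlap in this measure. Ptpn22 was 11.3 to 175 CPM (read counts scaled to a common library size by TMM) in the PEP+/+ samples and 0 to 3.03 CPM in the PEP-/- samples, as the labels give it. Tsc22d3, a glucocorticoid-induced gene, was 43.9 to 134 CPM without DEX and 725 to 1280 CPM with it, and Fkbp5, another such gene, was 72.5 to 124 CPM and 745 to 1080 CPM. All 12 mast cell markers were counted in every sample, at a summed 68800 to 108000 CPM. The 7 macrophage markers summed to 3.97 to 6.58 CPM in the numbered and 1.6 to 2.95 CPM in the lettered set, and the 8 neutrophil markers to 1.23 to 2.37 CPM and 0 to 0.36 CPM. The 8 eosinophil markers summed to 8.75 to 28.7 CPM, with Ccr3, Siglecf and Il5ra counted in every sample. Epx, Ear1, Ear2 and Ear6 were at 0 in every sample, and Prg2 had 8 counts in the numbered and 1 in the lettered set.

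The clearest difference among the members lay between samples with and without DEX. In the edgeR fit without pairing, Mgst2 rose with DEX and Alox5 fell with DEX in the DNP-treated cells. No member passed the test for DNP or for genotype in that fit. DESeq2, also fitted without pairing, called Lta4h for DNP with and without DEX. With a term for the set in the edgeR fit (the replicate block), Lta4h was called for DNP without DEX. Ltc4s, Mgst2 and Ggt5 were then called for genotype. The promoter windows of Mgst2 and Alox5 are shown, since they carry the calls of the edgeR fit without pairing. They are the 250 bases before the RefSeq start site (GRCm38.p6), 5′ to 3′ on the gene's strand. The GENCODE annotation that gave the gene positions has a different start for Mgst2. The Mgst2 window lies inside that gene span (chr3:51660360-51682677), downstream of its start. The Alox5 window lies directly before the annotated start of Alox5. Capitals mark a TATA box (TATAAA, either strand) or a GC box (GGGCGG, either strand).
Mgst2, chr3:51660929-51661178, + strand: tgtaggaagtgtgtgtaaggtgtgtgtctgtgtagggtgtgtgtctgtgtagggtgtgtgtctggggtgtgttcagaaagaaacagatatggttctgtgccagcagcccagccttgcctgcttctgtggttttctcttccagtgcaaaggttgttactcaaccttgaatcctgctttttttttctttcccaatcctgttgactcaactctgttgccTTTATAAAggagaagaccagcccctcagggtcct
Alox5, chr6:116461179-116461428, - strand: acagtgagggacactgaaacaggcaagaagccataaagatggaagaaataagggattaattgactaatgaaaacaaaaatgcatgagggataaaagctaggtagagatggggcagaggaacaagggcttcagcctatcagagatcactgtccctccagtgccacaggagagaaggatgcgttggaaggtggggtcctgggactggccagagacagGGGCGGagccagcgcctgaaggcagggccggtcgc
The Mgst2 window held TATAAA and, overlapping it, the same letters on the other strand. TATAAA was present in 12.4% of 32851 mouse promoter windows of the same length. The Alox5 window held 1 GC box and no TATAAA, and a GC box was present in 32.7% of windows. Neither window held the glucocorticoid receptor half-site AGAACA on either strand, a run found in 16.1% of windows, nor the full palindromic glucocorticoid response element, found in 0.00913%. The GC content was 47.6% for Mgst2 and 52.8% for Alox5, against a median of 52.4%. Windows were also given for Ltc4s and Lta4h, and these held none of the 4 motifs. The Ltc4s window partly overlapped the annotated span of its gene. No window was given for Alox5ap, Alox15, Ggt5 or Cysltr1.

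The members covered a very wide range of levels. On the scale of CPM per kb of exon, Alox5ap averaged 603 ± 105 (SD, n = 16) and Alox5 453 ± 69.2, ranks 71 and 100 of 13165 tested genes with a length. Lta4h averaged 19.3 ± 2.78, Ltc4s 8.97 ± 4.48 and Mgst2 4.89 ± 3.48 on the same scale. Ggt5 averaged 0.235 and Alox15 0.141 CPM per kb, and Cysltr1 had 2 counts in all 16 libraries together. Alox5ap exceeded Alox5 in 13 of 16 samples by this length and in 7 of 16 when the length of the principal transcript was used. The order of Ltc4s and Mgst2 also depended on length: Ltc4s was higher per kb of exon in 16 of 16 samples, and Mgst2 was higher per kb of principal transcript in 16 of 16. The order of the other neighbours was the same under both lengths, although the ranges of some neighbours overlapped: Lta4h was above Ltc4s in 15 of 16 samples and Ggt5 above Alox15 in 10 of 16, per kb of exon.

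**Figure D1:**
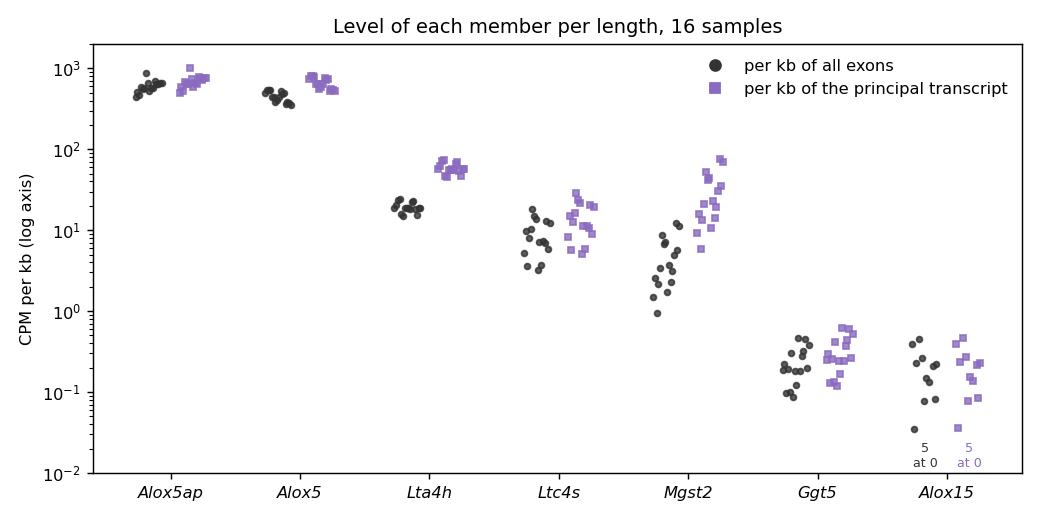
CPM per kb on a log axis for 7 members, with 1 point per sample (n = 16), per kb of all exons (black) and per kb of the principal transcript (purple). Alox5ap and Alox5 lie far above the rest, Ltc4s and Mgst2 change places with the length used, and Alox15 was at 0 in 5 samples.

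Alox5 (ENSMUSG00000025701, chr6:116410077-116461178, - strand) was the most heavily counted member, at 12165 to 43114 counts per sample. In IgE cells it was 2059 and 2244 CPM in PEP+/+ and 1825 and 2163 CPM in PEP-/-. With DNP it was 2246 and 2205 CPM in PEP+/+ and 2004 and 2061 CPM in PEP-/-. The 4 DNP samples overlapped the 4 IgE samples. With DEX and no DNP it was 1814 and 1813 CPM in PEP+/+ and 1489 and 1589 CPM in PEP-/-. With DNP and DEX it was 1584 and 1680 CPM in PEP+/+ and 1512 and 1463 CPM in PEP-/-. Every DEX sample was below every sample without DEX that had the same DNP treatment. In the presence of DNP, Alox5 fell with DEX by 0.45 on the log2 scale (SE 0.11, 0.733-fold, 95% interval 0.616 to 0.872, edgeR adjusted p = 0.0285). Without DNP the log2 difference was -0.31 (SE 0.11, edgeR adjusted p = 0.137, and 0.0241 with the replicate block). The block adds a term for the set, so that numbered samples are compared with numbered and lettered with lettered. The log2 difference with DNP was -0.46 within the numbered set and -0.44 within the lettered set. The call with DNP was kept in 1 of the 8 fits that left out a sample, the one without the lettered PEP+/+ IgE DNP DEX sample (adjusted p = 0.0439), and the adjusted p was up to 0.102 in the other 7. It was also lost without the filter on low counts (adjusted p = 0.276) and in the fit on the 4 conditions compared (adjusted p = 0.153), and DESeq2 made it (adjusted p = 3.91e-06).

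Alox5ap (ENSMUSG00000060063, chr5:149264767-149288153, + strand) did not pass the test for any treatment in the fit without pairing. In IgE cells it was 622 and 732 CPM in PEP+/+ and 744 and 815 CPM in PEP-/-, and with DNP it was 664 and 840 CPM and 802 and 987 CPM. With DEX it was 800 and 802 CPM in PEP+/+ and 914 and 904 CPM in PEP-/-. With DNP and DEX it was 1259 and 933 CPM in PEP+/+ and 938 and 939 CPM in PEP-/-, so that the numbered PEP+/+ sample stood apart. All 4 samples with DNP and DEX were above all 4 with DEX alone. The DEX difference was 0.23 (SE 0.14, edgeR adjusted p = 0.452) without DNP and 0.31 (SE 0.14, adjusted p = 0.22) with DNP, both on the log2 scale. The ratio of Alox5 to Alox5ap, both in CPM per kb of exon, was 0.848 to 1.15 in IgE samples, 0.723 to 1.17 with DNP, 0.564 to 0.784 with DEX and 0.435 to 0.622 with both. The ratios of the DEX samples were below those of the IgE samples, and the ratios with DNP and DEX were below those with DNP. Alox5ap shares 189 exon bases with Gm19719 on the opposite strand, and the strand setting of the counting is not given in the sources used here.

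**Figure D2:**
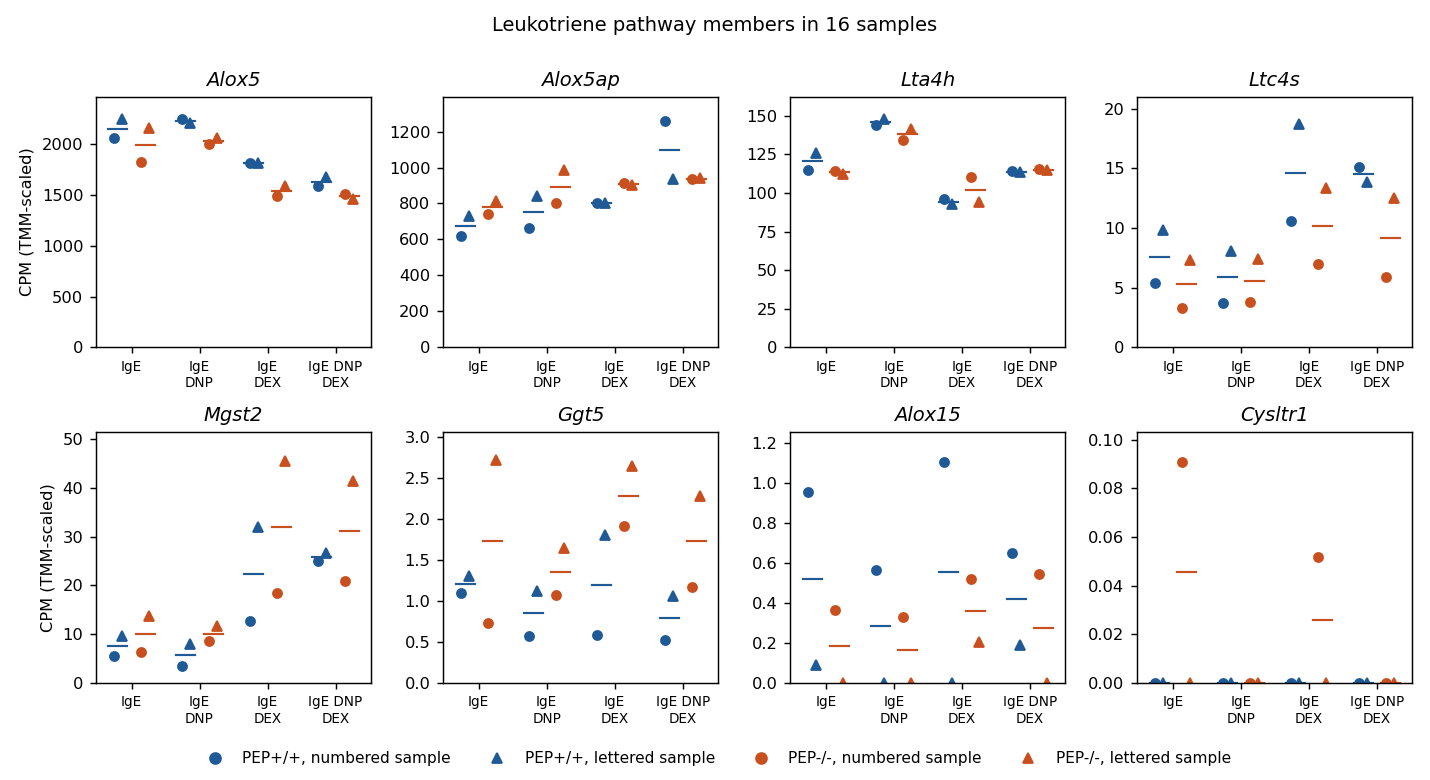
CPM of each of the 8 members (each axis starts at 0) in the 16 samples, by treatment; circles are numbered and triangles lettered samples, colours are genotypes, and lines are means of 2 samples. Alox5 sits lower and Mgst2 higher in the DEX samples, and in most conditions the lettered Ltc4s and Mgst2 samples lie above the numbered ones.

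Lta4h (ENSMUSG00000015889, chr10:93453411-93484875, + strand), the branch to leukotriene B4, was counted 875 to 2575 times per sample. In IgE cells it was 115 and 126 CPM in PEP+/+ and 115 and 112 CPM in PEP-/-, and with DNP it was 144 and 148 CPM and 134 and 142 CPM. All 4 DNP samples were above all 4 IgE samples. With DEX it was 96 and 92.6 CPM in PEP+/+ and 111 and 93.9 CPM in PEP-/-. With DNP and DEX the 4 values lay between 113.8 and 115.2 CPM, above all 4 samples with DEX alone and below all 4 with DNP alone. On the log2 scale the DNP difference was 0.28 (SE 0.10, edgeR adjusted p = 0.0859, and 0.0165 with the replicate block) without DEX and 0.22 (SE 0.10, adjusted p = 0.189, and 0.0525 with the block) with DEX. The DEX difference was -0.25 (SE 0.10, adjusted p = 0.177, and 0.0387 with the block) without DNP and -0.31 (SE 0.10, adjusted p = 0.076, and 0.0113 with the block) with DNP.

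Ltc4s (ENSMUSG00000020377, chr11:50236461-50238616, - strand), the branch to leukotriene C4, had 36 to 444 counts per sample. In IgE cells it was 5.36 and 9.80 CPM in PEP+/+ and 3.28 and 7.30 CPM in PEP-/-, and with DNP it was 3.69 and 8.10 CPM and 3.77 and 7.37 CPM. With DEX it was 10.6 and 18.7 CPM in PEP+/+ and 6.95 and 13.3 CPM in PEP-/-. With DNP and DEX it was 15.1 and 13.9 CPM in PEP+/+ and 5.87 and 12.5 CPM in PEP-/-. The lettered sample was the higher one in 7 of 8 conditions, by a mean of 0.84 on the log2 scale over the 8, so the DEX groups overlapped the others although all 8 differences within a set were upwards. The DEX difference was 0.93 (SE 0.41, 1.91-fold, edgeR adjusted p = 0.235, and 0.00144 with the replicate block) without DNP and 1.00 (SE 0.41, 2-fold, adjusted p = 0.164, and 0.00091 with the block) with DNP, on the log2 scale. Ltc4s shares 268 exon bases with the antisense gene Gm26542, which was 0.18 to 2.23 CPM.

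Mgst2 (ENSMUSG00000074604, chr3:51660360-51682677, + strand) rose most. In IgE cells it was 5.58 and 9.63 CPM in PEP+/+ and 6.37 and 13.7 CPM in PEP-/-, and with DNP it was 3.50 and 7.99 CPM and 8.53 and 11.7 CPM. With DEX it was 12.7 and 32.0 CPM in PEP+/+ and 18.4 and 45.6 CPM in PEP-/-. With DNP and DEX it was 25 and 26.7 CPM in PEP+/+ and 21 and 41.5 CPM in PEP-/-. In DNP-treated cells all 4 DEX samples were above all 4 without DEX, and in the others 1 DEX sample overlapped. Mgst2 rose with DEX 3.04-fold without DNP (log2 1.61, SE 0.43, 95% interval 1.58 to 5.88, edgeR adjusted p = 0.0389) and 3.73-fold with DNP (log2 1.90, SE 0.44, 95% interval 1.91 to 7.30, adjusted p = 0.0185). The lettered sample was higher in all 8 conditions, by a mean of 0.90 on the log2 scale. Within the numbered set the mean log2 difference was 1.34 without DNP and 2.03 with it, and within the lettered set it was 1.72 and 1.77. Without DNP the call was kept when the numbered PEP+/+ IgE DEX, the numbered PEP-/- IgE DEX or the lettered PEP-/- IgE sample was left out and lost in the other 5 fits (adjusted p up to 0.165). With DNP it was kept in 4 of 8 fits and lost without the numbered PEP+/+ IgE DNP, either PEP-/- IgE DNP or the lettered PEP-/- IgE DNP DEX sample (adjusted p up to 0.0785).

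Ggt5 (ENSMUSG00000006344, chr10:75589340-75617200, + strand) was counted 4 to 53 times per sample, at 0.52 to 2.73 CPM. The lettered sample was the higher one in all 8 conditions. The 8 PEP+/+ samples (0.52 to 1.81 CPM) overlapped the 8 PEP-/- samples (0.73 to 2.73 CPM). Alox15 (ENSMUSG00000018924, chr11:70344152-70352031, - strand) had 0 to 17 counts, of which 66 fell in the numbered and 6 in the lettered set, and 5 samples were at 0. Ly6g, a neutrophil marker, was split between the sets in the same direction, with 163 and 9 counts. The other neutrophil markers had few counts in either set. S100a9 had 9 and 0, S100a8 6 and 0, Ngp 5 and 2, Ltf 3 and 1, and Elane 2 and 0. Camp had 0 in both sets, and Mpo went the other way, with 1 and 6. The part of neutrophils in the Alox15 counts was not tested. Cysltr1 (ENSMUSG00000052821, chrX:106574346-106603679, - strand) had 1 count in each of 2 numbered PEP-/- samples and 0 in the other 14. A count of 0 allows up to 3 counts, or 0.126 to 0.391 CPM at these depths, for counting error only. Cysltr1 did not pass the filter on low counts and was not tested.

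The test of each comparison used all 13305 genes with enough counts, of which 7 were members. For DEX without DNP, 1 of 7 tested members was called (Mgst2), against 9.37% of all genes tested. For DEX with DNP, 2 of 7 were called (Alox5 and Mgst2), against 10.7% of all genes. In each comparison 4 members had an unadjusted p under 0.05 (edgeR without the block), against 2578 and 3180 of the 13305 genes. The members' median log2 difference was 0.23 and 0.31 in these comparisons, and that of all genes was 0.00 and -0.01. With the replicate block 4 of 7 were called in each (Alox5 and Lta4h lower, Ltc4s and Mgst2 higher), against 26.7% and 33.3% of all genes. DESeq2 called 3 in each (Alox5, Lta4h and Mgst2), against 12.5% and 14.6% of all genes. For DNP, no member was called by edgeR without the block, against 16.7% of all genes without DEX and 12.6% with DEX. In each, 1 member (Lta4h) had an unadjusted p under 0.05, against 3646 and 3491 of the 13305 genes. With the replicate block Lta4h was called for DNP without DEX, against 37.9% of all genes, and DESeq2 called Lta4h in both DNP comparisons, where it called 20.3% and 17.3% of all genes. The members' medians were -0.15 without DEX and -0.08 with DEX.

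The change with DNP was also compared between cells with and without DEX. No member was called by edgeR, none had an unadjusted p under 0.05 and DESeq2 called none, whereas edgeR called 0.331% and DESeq2 0.759% of all genes. Unadjusted edgeR p was under 0.05 for 485 of 13305 genes. The interaction was -0.14 (SE 0.16) for Alox5 and 0.29 (SE 0.60) for Mgst2 on the log2 scale. The 95% interval was wide for Mgst2, from 0.489-fold to 3.07-fold.

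DEX changes were next fitted within each genotype, at 2 samples against 2. No member passed in PEP+/+, where 3.18% of all genes were called for DEX without DNP and 3.03% with DNP, or in PEP-/-, where 3.34% and 3.28% were. Unadjusted edgeR p without the block was under 0.05 for 2 members in both genotypes without DNP. The counts over all 13305 genes were 1646 in PEP+/+ and 1630 in PEP-/-. With DNP, unadjusted p was under 0.05 for 5 members in PEP+/+ and 2 in PEP-/-, against 2022 and 1868 of all genes. Mgst2 was 2.95-fold and 4.52-fold higher with DEX in PEP+/+ (without and with DNP, edgeR adjusted p = 0.279 and 0.107) and 3.14-fold and 3.08-fold higher in PEP-/- (0.235 and 0.226). These folds rest on single samples: without 1 sample the log2 difference was 0.74 (lettered PEP+/+ IgE DEX left out) to 2.08 (numbered PEP+/+ IgE DEX left out) in PEP+/+ without DNP and 0.86 (lettered PEP-/- IgE DEX) to 2.32 (lettered PEP-/- IgE) in PEP-/-. With DNP it was 1.72 (numbered PEP+/+ IgE DNP) to 2.92 (lettered PEP+/+ IgE DNP) in PEP+/+ and 1.04 (lettered PEP-/- IgE DNP DEX) to 2.04 (numbered PEP-/- IgE DNP DEX) in PEP-/-. With the replicate block Ltc4s and Mgst2 were called for DEX without DNP in both genotypes, against 15.6% of all genes in PEP+/+ and 14.7% in PEP-/-. For DEX with DNP the block gave 4 members in PEP+/+ (Alox5, Alox5ap, Ltc4s and Mgst2), against 18.9% of all genes, and 2 in PEP-/- (Alox5 and Mgst2), against 18.1%. DESeq2 called 2 members for DEX with DNP in PEP+/+ (Alox5 and Mgst2), against 6.33% of all genes, and 1 member in PEP-/- (Alox5), against 6.23%. Without DNP it called none in PEP+/+, against 6.04%, and Alox5 in PEP-/-, against 6.16%.

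**Figure D3:**
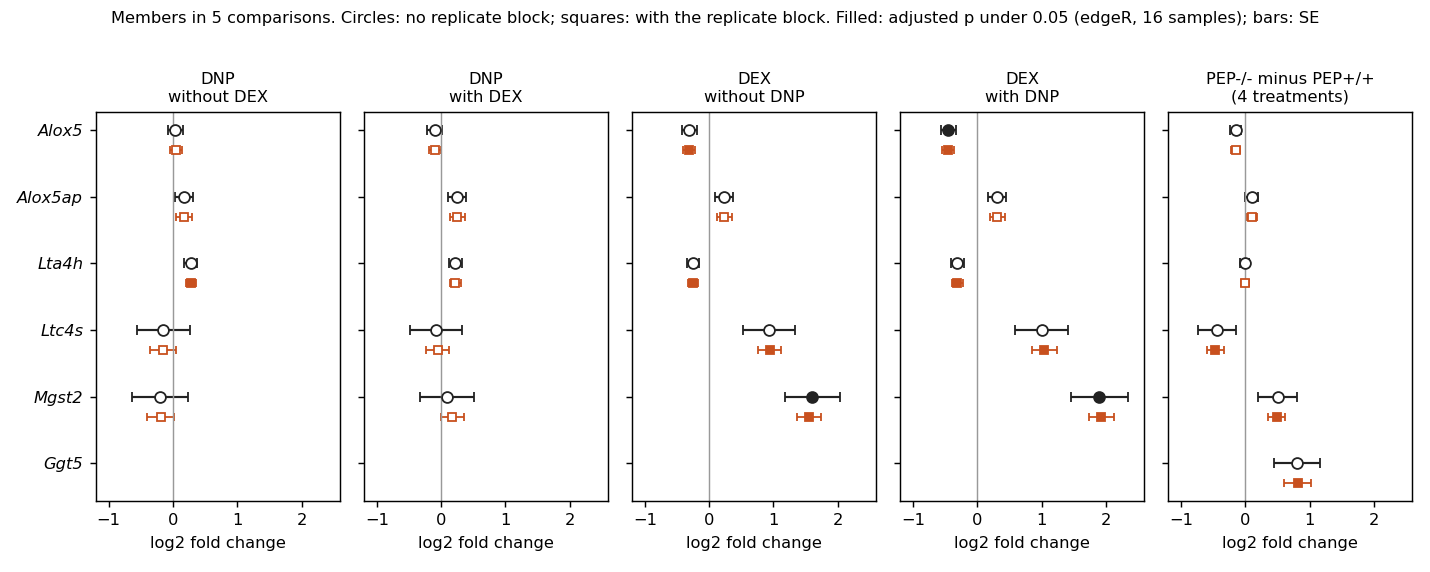
Log2 fold change and SE of the members in the 4 treatment comparisons and the average over 4 treatments of PEP-/- minus PEP+/+, with circles from the fit without the replicate block and squares from the fit with it; filled symbols have an adjusted p under 0.05 (edgeR, 16 samples). The estimates stay in place between the fits and the bars of Ltc4s and Mgst2 shorten with the block; Ggt5 is drawn for genotype alone.

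The loss of PEP was examined as the average difference over the 4 treatments. No member was called by edgeR without the block, against 1.59% of all genes, or by DESeq2, against 5.31%. Unadjusted p was under 0.05 for 1 member (Ggt5) in that edgeR fit, against 1884 of 13305 genes. DESeq2 gave 2 such members (Alox5 and Ggt5), against 2002 genes. The block gave 4 (Alox5, Ltc4s, Mgst2 and Ggt5), against 4229 genes. Ggt5 was 1.74-fold higher in PEP-/- (log2 0.80, SE 0.36, edgeR adjusted p = 0.345), upwards in 7 of 8 differences within a set. Mgst2 was 1.42-fold higher (log2 0.50, SE 0.30, adjusted p = 0.53), upwards in 7 of 8. Ltc4s differed by -0.44 on the log2 scale (SE 0.29, adjusted p = 0.577), downwards in 7 of 8. With the replicate block these 3 were called (adjusted p = 0.0167, 0.0226 and 0.0264), against 17.4% of all genes. Alox5 differed by -0.15 (SE 0.08, adjusted p = 0.449), downwards in 8 of 8 differences within a set. Alox5ap differed by 0.10 (SE 0.10) and Lta4h by -0.01 (SE 0.07) on the same scale. Within a single treatment no member was called in IgE cells, with DNP, with DEX or with both (edgeR without the block). Each time 0.00752% of all genes (1 gene) were called. No member had an unadjusted p under 0.05 in that fit, against 528, 605, 385 and 298 of 13305 genes. With the block 0, 1, 2 and 2 members did, against 1906, 1898, 1554 and 1426 genes. The change with DNP, the change with DEX and the change with DEX in DNP-treated cells were compared between the genotypes as well. No gene was called in any of these 3 tests (0% of 13305 genes, by edgeR), and no member had an unadjusted p under 0.05 by edgeR or DESeq2.

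The other genes of the pathway were taken from 5 lists of 47 genes, of which 24 were tested. Genes of these lists given below without a call were named after their values were seen. For DNP, 4 rose and 1 fell without DEX, and 5 rose and 1 fell with DEX, where 16.7% and 12.6% of all genes were called. For DEX, 3 rose and 2 fell without DNP, and 3 rose and 4 fell with DNP, where 9.37% and 10.7% of all genes were called. With the replicate block the DEX counts were 4 up and 8 down without DNP, and 4 up and 7 down with DNP, against 26.7% and 33.3% of all genes. The median log2 differences of the 24 were 0.08, 0.19, -0.14 and -0.03 in that order. For genotype none of the 24 was called by edgeR without the replicate block, against 1.59% of all genes. With the block 3 of the 24 were called, against 17.4% of all genes. The list of arachidonate release and reacylation had 8 tested genes of 20, with median log2 differences of -0.45 for DEX without DNP and -0.47 with DNP. Pla2g4a, the cytosolic phospholipase A2 that frees arachidonic acid, was 64.5, 38.3, 57.7 and 36 CPM with IgE and 52, 23.9, 38.6 and 23.1 CPM with DNP (numbered then lettered, PEP+/+ then PEP-/-). Its DNP difference was downwards in 4 of 4 differences within a set with and without DEX, and its log2 difference was -0.52 without DEX (SE 0.36, edgeR adjusted p = 0.429, and 0.000638 with the replicate block) and -0.67 with DEX (SE 0.37, adjusted p = 0.281, and 0.000121 with the block). Acsl4, which activates arachidonic acid, rose with DNP 2.3-fold without DEX (SE 0.36 on the log2 scale, edgeR adjusted p = 0.0396). Mboat7, which returns arachidonate to phosphatidylinositol, rose with DNP by 0.61 (SE 0.13) without DEX and 0.45 (SE 0.12) with DEX, and fell with DEX by 0.46 (SE 0.12) in DNP-treated cells, all on the log2 scale. Lpcat2, a lysophospholipid acyltransferase, fell with DEX by 1.07 (SE 0.20) without DNP and 0.95 (SE 0.20) with DNP. Lpcat3, another lysophospholipid acyltransferase, fell with DEX by 0.73 (SE 0.21) in DNP-treated cells. The secreted enzymes Pla2g5 and Pla2g1b had 1 count each in the series and Pla2g2d 92.

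Among the 5 regulators of 5-lipoxygenase, the kinases Mapkapk2 and Mapkapk3, which can phosphorylate Alox5, rose with DNP. Mapkapk3 was 116, 99.4, 111 and 96.2 CPM with IgE and 363, 425, 313 and 462 CPM with DNP, in the same order, and no sample overlapped. It rose 3.7-fold without DEX (edgeR adjusted p = 2.79e-05) and 2.34-fold with DEX (0.000816). Mapkapk2 rose 2.32-fold without DEX (6.52e-05) and 1.96-fold with DEX (0.000495). Gpx1, a glutathione peroxidase, rose 1.91-fold with DNP in DEX-treated cells (0.042). Cotl1, coactosin-like protein, which binds Alox5, fell with DEX by 0.76 (SE 0.16) without DNP and 0.61 (SE 0.16) with DNP on the log2 scale. In the list of other lipoxygenases 2 of 5 genes were tested and none was called by edgeR without the block in these comparisons. Alox8 was 1.13 to 3.24 CPM without DEX and 2.19 to 7.57 CPM with it, and with the block it was the 1 gene of this list called for DEX with or without DNP.

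The genes that act after synthesis held the largest DEX differences. Dpep2, a dipeptidase that converts leukotriene D4 to E4, was 0.22 to 1.15 CPM in the 8 samples without DEX and 2.73 to 5.16 CPM in the 8 with it. It rose 8.16-fold without DNP (log2 3.03, SE 0.36, edgeR adjusted p = 0.000278) and 4.83-fold with DNP (log2 2.27, SE 0.34, 0.00156). Ltb4r1, the high-affinity receptor of leukotriene B4, was 1.31 to 5.98 CPM without DEX and 8.29 to 22.0 CPM with it. It rose 4.79-fold without DNP (log2 2.26, SE 0.48, 0.0119) and 4.99-fold with DNP (log2 2.32, SE 0.50, 0.0121). Ltb4r2, a second leukotriene B4 receptor, rose with DEX by 1.45 (SE 0.34) and 1.59 (SE 0.39) and fell with DNP by 1.48 (SE 0.38) and 1.35 (SE 0.34) on the log2 scale, at 0.28 to 5.73 CPM. Mgst3, a glutathione transferase of the Mgst2 family, rose 2.17-fold with DNP in DEX-treated cells (adjusted p = 0.0414). Cysltr2, the second receptor of cysteinyl leukotrienes, was 0.87 to 3.55 CPM, and Oxgr1 and Gpr17 had no count in any sample. Ltb4r2 lies near Ltb4r1 in the genome, and whether their reads could be told apart was not tested. The calls of Mapkapk2, Mapkapk3 and Dpep2 in both comparisons, Mboat7 for DNP without DEX, and Lpcat2 and Ltb4r1 for DEX without DNP were made in all 8 fits that left out 1 sample. In fits on only the compared conditions, that of Ltb4r1 for DEX without DNP was lost and the others of these were kept. The calls of Lpcat2 for DEX with DNP and Cotl1 for DEX without DNP were made in 7 of 8, and that of Ltb4r1 for DEX with DNP in 6 of 8. Those of Ltb4r2 were made in 3 or 4 of 8, that of Acsl4 in 3, those of Lpcat3, of Cotl1 for DEX with DNP and of Mboat7 for DNP with DEX in 2, and those of Gpx1, Mgst3 and Mboat7 for DEX with DNP in 1.

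**Figure D4:**
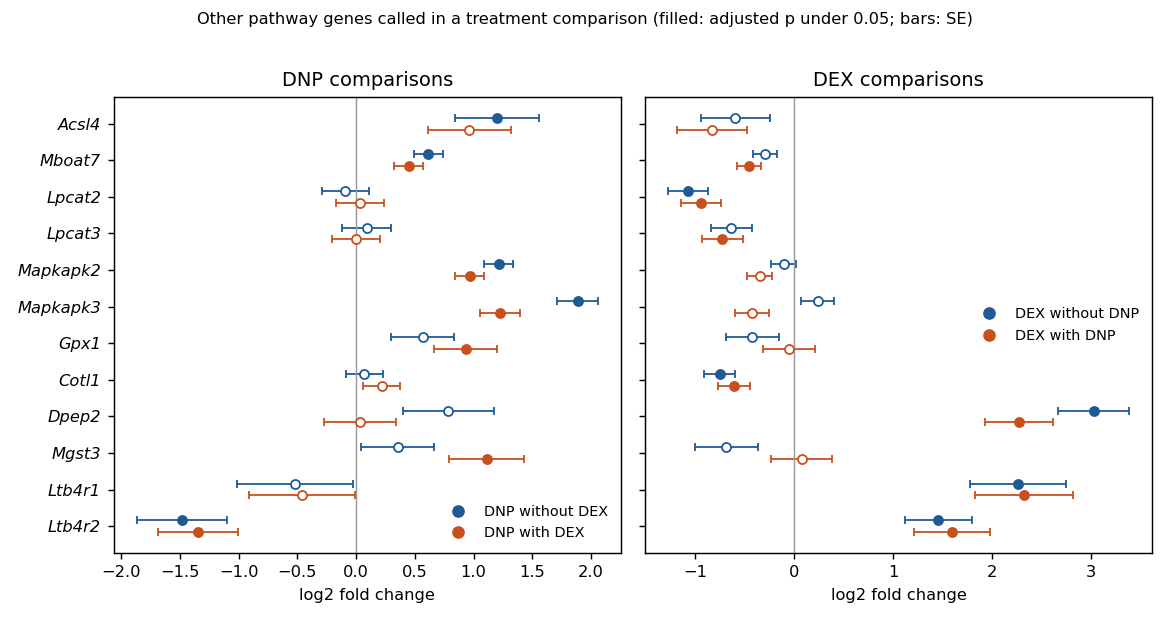
Log2 fold change and SE of the 12 other pathway genes called in at least 1 treatment comparison, for DNP (left) and DEX (right); filled symbols have an adjusted p under 0.05 (edgeR without the replicate block). Mapkapk2 and Mapkapk3 lie to the right with DNP, and Dpep2, Ltb4r1 and Ltb4r2 to the right with DEX.

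The 8 condition means of log2 CPM were used to describe which genes ran most like each member. For Alox5 these were Tgm1 (r = 0.995), Nipsnap3b (0.990) and Mboat1 (0.985), and for Mgst2 they included Serinc3 (0.994) and Smpx (0.991). For Alox5ap they were Fau (0.979), Eef1a1 (0.968) and Rpl10-ps6 (0.968), for Lta4h Samsn1 (0.984), Fancc (0.981) and H2-Q4 (0.980), and for Ltc4s Ptges2 (0.979), Ufsp1 (0.973) and Tcrg-C1 (0.970). For the 2 members of low count the values were 0.961 or less, led by Nr2c2ap for Alox15 and Ttc3 for Ggt5. Between members, r was -0.97 for Alox5 and Mgst2, 0.75 for Ltc4s and Mgst2 and 0.61 for Alox5 and Lta4h. Each r rests on 8 points that come from the same 16 libraries and share their scaling, and it describes these means alone.

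Some genes on the lists of markers of other cells also differed between treatments. Whether the mast cells themselves expressed these genes was not tested. The 3 basophil markers (Mcpt8, Prss34 and Cd200r3) were counted in all 16 samples and summed to 539 to 623 CPM with IgE, 750 to 882 CPM with DNP, 228 to 392 CPM with DEX and 431 to 479 CPM with both, led by Cd200r3. Cd200r3 alone was 503 to 535, 695 to 837, 198 to 308 and 357 to 414 CPM in that order, and its groups did not overlap. Mcpt8 (8.03 to 62.8 CPM) and Prss34 (10.2 to 59.4 CPM) overlapped between treatments: with DEX Prss34 was upwards in 2 of 4 differences within a set without DNP and 3 of 4 with DNP, and Mcpt8 in 1 of 4 each. Ccr3, of the eosinophil list, was 10.3 to 17.5 CPM with IgE and 11 to 22.1 CPM with DNP. It was 4.17 to 8.34 CPM with DEX and 5.47 to 6.66 CPM with both. Ccr3 was lower with DEX in 8 of 8 differences within a set. Siglecf and Il5ra, of the same list, were upwards with DEX in 4 of 4 without DNP. With DNP they were upwards in 2 of 4 and 3 of 4. Of the erythroid list, Hba-a1 was upwards with DEX in 4 of 4 with and without DNP. Hbb-bt was downwards in 4 of 4 without DNP and 3 of 4 with DNP. The 4 dendritic cell markers, led by Itgax, summed to 4.92 to 19.9 CPM without DEX and 1.82 to 8.37 CPM with it, and to 1.82 to 7.01 CPM in the numbered and 5.19 to 19.9 CPM in the lettered set. The part of these shifts in the results for Alox5, Mgst2 and the other members was not tested. In bulk samples such as these, fewer cells of a type and less RNA per cell cannot be told apart.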

How the data were processed

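RNA was sequenced from 16 BMMC samples (8 conditions, 2 samples each). The authors prepared stranded mRNA libraries, aligned reads with TopHat2 to GRCm38 and counted them with HTSeq, and they deposited raw counts per gene; the strand setting is not given in the sources used here. Rows that name no gene were left out (no feature, 4.69% to 10.98% of reads; ambiguous, 1.9% to 2.5%; not unique, 21.45% to 37.76%). Gene names and lengths came from GENCODE M21, which held 37607 of 39179 identifiers (95.99%).

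The counts were scaled by TMM and tested in edgeR 4.0.16 (R 4.3.3) by quasi-likelihood on all 16 samples with 8 condition means (8 residual degrees of freedom), after filterByExpr at a minimum count of 10 (13305 genes), with Benjamini-Hochberg adjustment over all genes and a threshold of 0.05. Intervals of 95% used the t distribution with edgeR's 11.3 total degrees of freedom. The scripts were tested on simulated data. Alternatives were DESeq2 1.42.0, its size factors, other filters, fits on the compared conditions, leaving out each sample and a replicate block. The deviations of the numbered samples from their condition means correlated between conditions (r from 0.453 to 0.799 over 28 pairs of conditions, all above 0.1). With 2 samples per condition, the lettered deviations are their mirror image. Samples of the same set were therefore paired across conditions in the replicate block and in the differences within a set. The main fit had no block and ignored this pairing, which comes from the sample labels. The principal transcript length was added after seeing the data. The members and lists were chosen with earlier results of these data known. Named genes were the members, up to 3 called genes a direction from each list and comparison, and the 3 genes most like each member, of which 1 is not reported here. Promoters came from RefSeq (4 of 8 members matched). The floors cover counting error only, and totals of 8612531 to 22143526 counts set the precision.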

Additional observations from a re-analysis of the deposited data

Results flagged for a closer look

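For Ltc4s, the DNP difference without DEX was downwards in both PEP+/+ sets (mean -0.40 on the log2 scale) and upwards in both PEP-/- sets (mean 0.10), a gap of 0.50. The interaction in edgeR was 0.43 (SE 0.83, adjusted p = 1.0). For Ggt5, the DEX difference with DNP was downwards in both PEP+/+ sets (mean -0.09) and upwards in both PEP-/- sets (mean 0.28), a gap of 0.36, and the interaction was 0.35 (SE 1.06, adjusted p = 1.0). Ggt5 rests on 4 to 53 counts per sample.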

How the results depend on the processing

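With the replicate block, members called were 1 for DNP without DEX, 4 for DEX without DNP and 4 for DEX with DNP. For the genotype average they were 3. Within a genotype they were 2 for DEX without DNP in each, and for DEX with DNP 4 in PEP+/+ and 2 in PEP-/-. The block changed no other count of called members reported. Some counts of members with an unadjusted p under 0.05 also changed. For the genotype average the count went from 1 to 4, and for DEX with DNP in PEP-/- from 2 to 4. DESeq2 called 1 for DNP without DEX, 1 for DNP with DEX, 3 for DEX without DNP and 3 for DEX with DNP (Alox5, Lta4h and Mgst2), 1 for DEX without DNP in PEP-/-, and for DEX with DNP 2 in PEP+/+ and 1 in PEP-/-. Without a filter on low counts these were 2 for DEX without DNP and 2 for DEX with DNP, against 1535 and 1788 of all 23136 genes. Both times they were Ltc4s and Mgst2, so that the Alox5 call was lost. For DEX without DNP, 1 member was called in each genotype alone (746 of all genes in PEP+/+, 749 in PEP-/-). For DEX with DNP, 2 were called in PEP+/+ and 1 in PEP-/- (831 and 769 of all genes). Fits on only the compared conditions called 0 for DEX without DNP, against 965 of all 13305 genes. They called 1 for DEX with DNP (Mgst2, the Alox5 call being lost), against 809 of all genes. In PEP+/+ alone they called 1 for DEX with DNP, against 211 of all genes. None was run for the interaction and the genotype average, which use all 8 conditions. Leaving out 1 sample gave 0 to 1 for DEX without DNP and 0 to 2 for DEX with DNP. The cause was not tested. The 23 calls of other pathway genes were all kept with the block and by DESeq2, and 9 in every fit without 1 sample. Without a filter on low counts 21 were kept, and the Mboat7 calls for DNP with DEX and DEX with DNP were lost. In fits on the compared conditions 12 were kept and 11 lost, among them that of Ltb4r1 for DEX without DNP.

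Signs turned in uncalled differences. The Lta4h genotype average was 0.001 by DESeq2. Leaving out 1 sample gave log2 ranges for DNP without DEX of -0.020 to 0.102 (Alox5), -0.497 to 0.204 (Ltc4s) and -0.572 to 0.129 (Mgst2). For DNP with DEX they were -0.387 to 0.189 (Ltc4s) and -0.190 to 0.497 (Mgst2). They were -0.040 to 0.703 for the Mgst2 interaction of DNP and DEX and -0.039 to 0.019 for the Lta4h genotype average. The range was -0.096 to 1.145 for the Ltc4s genotype difference in DNP without DEX, -0.240 to 0.982 for that of Ggt5 in DEX with DNP, and -0.068 to 0.225 for Alox5ap, DEX with DNP in PEP-/-. Depth limits Ggt5, Alox15 and Cysltr1 most; Ggt5 was not tested where 10 counts were required in every sample.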
